A study of Mus musculus with 3 samples.

Results

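Slc1a2, Slc1a3 and Glul are the 3 genes through which astrocytes take up glutamate and turn it into glutamine. They were chosen by name, with earlier results of these data known, and they are 3 of 19621 named genes with counts in the annotated regions. Poly(A) RNA of 3 coronal sections of the main olfactory bulb was captured on high-density barcoded spot arrays. The tissue came from adult C57BL/6J mice aged 12 weeks, with no treatment given in the labels, and each section is 1 sample. Which mouse gave which section is not in the labels, so p-values measure only the spread of these sections, which may be technical. Region codes follow the deposited annotation, in which each annotated spot belongs to 1 of 9 regions. ONL stands for olfactory nerve layer, GL for glomerular layer, EPL for external plexiform layer, M/T for mitral layer and IPL for internal plexiform layer. GCL-E and GCL-I are its external and internal granule cell layers, E is its ependymal cell zone and RMS its rostral migratory system. How its borders were drawn is not stated in the labels or the files.

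Slc1a2 encodes GLT-1 and Slc1a3 encodes GLAST, sodium-driven transporters that clear glutamate from the space around synapses. Glul encodes glutamine synthetase, which joins ammonia to the glutamate taken up, and the glutamine is passed back to neurons to be made into glutamate or GABA again. In the olfactory bulb, mitral and tufted cells release glutamate onto the dendrites of granule cells, and most of these reciprocal synapses lie in the external plexiform layer. Olfactory nerve axons release glutamate in the glomeruli of the glomerular layer.

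In the GENCODE M21 annotation of mm10, the build named in the submitters' processing notes, all 3 are protein-coding genes. Slc1a2 lies on the plus strand of chr2:102658659-102790784 with 12 transcripts, Slc1a3 on the minus strand of chr15:8634124-8710764 with 8, and Glul on the plus strand of chr1:153899944-153909723 with 5. Counts were given per gene and could not be assigned to exons or transcripts. Genes that overlap them held few counts. Teddm2, opposite to Glul, had 4 counts and Mir8114, on its strand, had 0. Gm13872, antisense to Slc1a2, had 1, and Gm37310, within Slc1a3, had 5.

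Since the 3 genes all rose in the external plexiform layer (below), the bases just before their transcription starts were set side by side. The 250 bases before the RefSeq start (GRCm38.p6) are printed 5′ to 3′ for Slc1a3 (minus strand, chr15:8710808-8711057) and Glul (plus strand, chr1:153899679-153899928). Capitals mark matches, on either strand, to 3 promoter motifs. These are the TATA box with the letters TATAAA, the box that activators such as NF-Y bind, with the letters CCAAT, and the GC box of Sp1, with the letters GGGCGG. No match overlapped another.
Slc1a3: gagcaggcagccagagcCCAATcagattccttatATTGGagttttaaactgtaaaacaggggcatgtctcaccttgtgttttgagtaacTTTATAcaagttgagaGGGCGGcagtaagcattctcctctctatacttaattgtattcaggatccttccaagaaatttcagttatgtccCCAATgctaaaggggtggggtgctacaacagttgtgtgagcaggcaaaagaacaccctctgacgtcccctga
Glul: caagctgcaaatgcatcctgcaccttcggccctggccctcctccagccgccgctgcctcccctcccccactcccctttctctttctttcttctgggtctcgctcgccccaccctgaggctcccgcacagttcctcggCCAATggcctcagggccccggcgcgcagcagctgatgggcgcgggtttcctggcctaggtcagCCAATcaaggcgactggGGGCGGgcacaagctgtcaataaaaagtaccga

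The Slc1a3 window held 1 match to the TATA box, 3 to the CCAAT box and 1 to the GC box, and the Glul window 0, 2 and 1. The TATA box match of Slc1a3 was on the opposite strand (printed as TTTATA) and did not lie near the start. Of 32536 RefSeq windows of this length, 12.3% held the letters of the TATA box, 33.8% those of the CCAAT box and 33.0% those of the GC box. The windows differed in base composition. Glul had 64.8% GC and 15 CpG dinucleotides, and Slc1a3 44.8% and 2, against medians of 52.4% and 6 over all windows. The Glul window overlaps exons of Teddm2 and Mir8114 in the annotation. The RefSeq start of Slc1a2 lies 47779 bases inside the GENCODE gene, so its window (44.8% GC, 1 CpG, no match to the 3 motifs) is not printed. A match of letters does not show a site in use, and the arrays did not measure factor binding.

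Sections 1, 2 and 3 held 344260, 650393 and 505305 counts, and the 27 sums of counts per section and region ranged from 1456 to 182699. Levels below are shares of such a sum, scaled to 1000000 counts (CPM). A spot is a small area that can hold several cells or part of one, and between 91.8% and 96.8% of the spots with a given uptake gene held a single count of it. Astrocyte markers were present, among them Aqp4 with 369 counts, Gfap with 168 and Aldh1l1 with 90. Of 8 ependymal and neural stem cell markers, 5 had any counts, and together they reached between 11.5 and 22.7 CPM in region E, so that region is named here by its annotation only.

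Section 1 stood apart for both transporters. Over the whole section, Slc1a2 stood at 485, 2851 and 2337 CPM in sections 1, 2 and 3 (167, 1854 and 1181 counts). Slc1a3 stood at 349, 1447 and 1518 CPM (120, 941 and 767 counts). Glul stood at 1351, 2213 and 2317 CPM (465, 1439 and 1171 counts). In annotated regions, section 1 was at 0.186 times the mean of the others for Slc1a2, 0.234 for Slc1a3 and 0.597 for Glul. Of 1996 tested genes, 359 (18%) were at less than 0.5 times in this comparison of 1 section with 2, and the median ratio was 1.12. Other astrocyte genes were split. Of the 6 tested genes for ion and water handling, 5 were at less than 0.5 times in section 1, among them Slc4a4 (0.143) and Kcnj10 (0.196). Of 14 tested genes for other astrocyte functions 2 were, and Aldoc (1.24), Ndrg2 (1.02) and Cst3 (1.56) were not. What sets section 1 apart was not tested. Section was a block in every test, so each result below is a difference between regions within sections.

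All 3 uptake genes rose in the external plexiform layer, against the mean of the other 8 regions. In the fitted model Slc1a2 rose 2.26-fold, Glul 2.05-fold and Slc1a3 1.92-fold, and none rose as far in another region. Each of these folds was larger than the ratio of CPM to the mean of the other regions in any section (given below). The fit averages regions on the log scale and uses TMM scaling, which the ratios of CPM do not. With library sizes alone the fitted log2 fold changes were 0.93, 0.83 and 0.70 in that order, against 1.18, 1.04 and 0.94 with TMM scaling. By CPM, Slc1a3 in RMS was at 1.90, 2.14 and 2.11 times the mean of the other regions in the 3 sections, from few counts. In each section this was more than in the external plexiform layer. No other region had all 3 uptake genes past the threshold. Glul also rose in the olfactory nerve and glomerular layers, and Slc1a3 in the glomerular layer, while Slc1a3 fell in both granule cell layers. Its 2.20-fold fall in GCL-E was larger than its rise in the external plexiform layer. All values by region and section are plotted below.

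**Figure D1:**
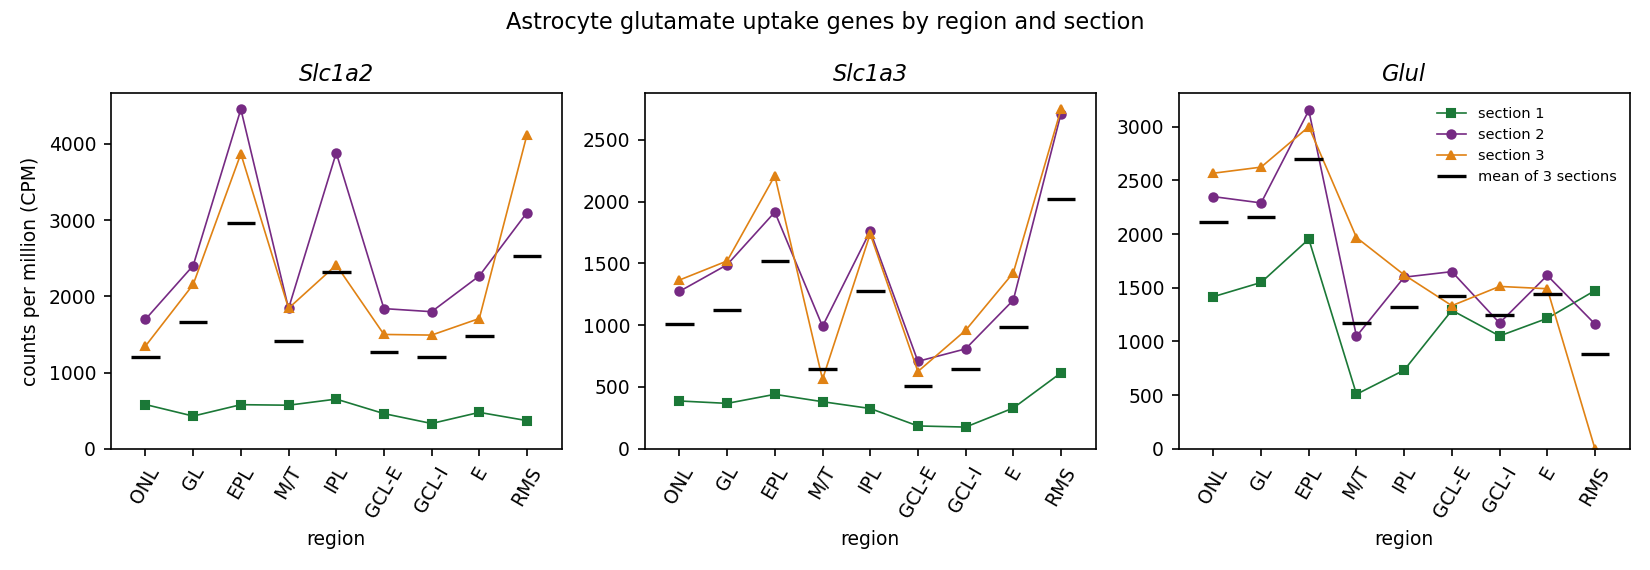
Level in CPM (vertical axis, linear from 0) of Slc1a2, Slc1a3 and Glul in 9 annotated regions (horizontal axis), with 1 coloured line per section and black bars for the mean of the 3 sections. In the external plexiform layer, Slc1a2 reached 4455 and 3871 CPM in sections 2 and 3 but 578 CPM in section 1, where its line is nearly flat.

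The transporter Slc1a2 stood at 578, 4455 and 3871 CPM in the external plexiform layer of sections 1, 2 and 3 (2968 ± 2091, SD, n = 3). The unweighted mean of the other regions was 1636 ± 1008 CPM. Sections 2 and 3 were far above section 1 in this layer, and the excess over the other regions was 1.20-fold in section 1, 1.89-fold in section 2 and 1.87-fold in section 3. In section 1 the layer came after the internal plexiform layer (651 CPM) and the olfactory nerve layer (580 CPM). Its 42 counts there gave an exact Poisson 95% interval of 416 to 781 CPM, which covers counting error only and spans the levels of both. The log2 fold change against the others was 1.18 ± 0.12 (SE, edgeR quasi-likelihood test, adjusted p = 3.46e-19). No other region passed for this gene.

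Slc1a3, the other transporter, stood at 440, 1916 and 2211 CPM in the external plexiform layer (1522 ± 949 against 1027 ± 590 CPM elsewhere). All 3 sections had more here than in the mean of the other regions, by 1.27, 1.40 and 1.62-fold. The log2 fold change was 0.94 ± 0.13 (SE, edgeR, adjusted p = 8.98e-11). In the glomerular layer it stood at 367, 1489 and 1520 CPM, barely above the mean of the other regions (1.04, 1.05 and 1.05-fold in sections 1, 2 and 3), with a fitted change of 0.43 (edgeR, adjusted p = 0.0324). That call was lost without section 2 (0.348) or section 3 (0.333), and with RLE scaling (0.0628), DESeq2 (0.155) and library sizes alone (0.376, log2 fold change 0.22). It was lost as well in a comparison of 5 regions described below (0.262).

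The enzyme gene Glul stood at 1953, 3153 and 3001 CPM in the external plexiform layer (2702 ± 653 against 1468 ± 272 CPM elsewhere). The layer ranked first for Glul in each section, by 1.69, 1.96 and 1.83 times the mean of the other regions. Its log2 fold change was 1.04 ± 0.12 (SE, edgeR, adjusted p = 1.65e-15). In the glomerular layer Glul stood at 1549, 2291 and 2624 CPM and in the olfactory nerve layer at 1417, 2349 and 2568 CPM. Both outer layers were above the mean of the others in each section, with log2 fold changes of 0.63 (edgeR, adjusted p = 4.67e-05) and 0.68 (adjusted p = 2.09e-04). Without section 2 the adjusted p was 0.0761 in the glomerular and 0.260 in the olfactory nerve layer, and in the comparison of 5 regions it was 0.119 and 0.302.

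These counts read against a background that differed by layer. In the external plexiform layer 10.8% of the 1996 tested genes rose, and 3 of 3 uptake genes did. In the glomerular layer 8.77% rose and 2 of 3 uptake genes did, and in the olfactory nerve layer 5.96% and 1 of 3. The uptake genes and the gene lists below were chosen with earlier results of these data known. Counts of them set beside such shares are therefore a description and not a test. In the external plexiform layer the median over all tested genes was 0.12 on the log2 scale, 0.05 with RLE scaling and -0.07 with library sizes alone, a shift of -0.19. Relative to that median, Slc1a2 stood at 1.06, 1.05 and 0.999, Slc1a3 at 0.82, 0.82 and 0.77, and Glul at 0.92, 0.92 and 0.90. Without boundary spots the median over the genes then tested moved to 1.49 in this layer, so the values of 1.77 for Slc1a2, 2.24 for Slc1a3 and 1.56 for Glul stood 0.28, 0.75 and 0.067 above it. That setting left as few as 71 counts in a sum. With boundary spots left out and only ONL, GL, EPL, GCL-I and E compared, the 5 regions that kept at least 10000 counts in each section, the median was 0.018. The uptake genes were then called higher in the external plexiform layer by 1.38, 0.88 and 0.86 (edgeR, adjusted p = 3.37e-30, 2.36e-09 and 7.60e-13). This comparison was chosen after the medians were seen. Of the calls over all genes in the fit of all 9 regions, 88.8% were higher in this layer with TMM scaling and 61.9% with library sizes alone.

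**Figure D2:**
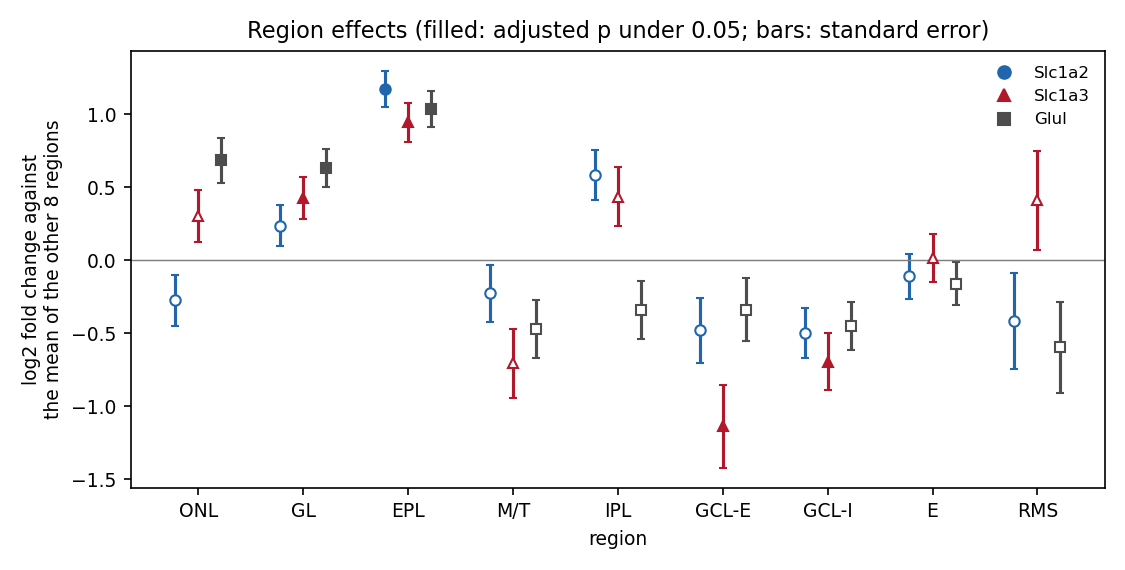
Fitted log2 fold change of each uptake gene in each region against the mean of the other 8 regions (vertical axis), with its standard error as the bar and filled symbols where the adjusted p was under 0.05. The external plexiform layer has 3 filled symbols, between 0.94 and 1.18, and Slc1a3 is filled and negative in both granule cell layers.

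Below the mitral layer, the granule cell layers hold the cell bodies of the inhibitory granule cells. Slc1a3 fell in both. It stood at 184, 707 and 625 CPM in GCL-E, from 2, 15 and 15 counts, with a log2 fold change of -1.14 (edgeR, adjusted p = 0.0321, 0.251% of genes lower). In GCL-I it stood at 175, 808 and 959 CPM, with a log2 fold change of -0.70 (adjusted p = 0.0194, 0.902% of genes lower). Each section was under the mean of its other regions in both layers. Without section 2 the adjusted p was 0.458 in GCL-E and 0.482 in GCL-I, and without section 3 it was 0.362 and 0.0663. With boundary spots left out the change in GCL-I was 0.50 (adjusted p = 0.630), but the median over all tested genes was 1.18 there. In the comparison of 5 regions without boundary spots it was -1.04 (9.63e-05) with a median of 0.028. With no filter it was -0.54 (0.398), and with the join by spot name the change in GCL-E was -0.93 (0.0847).

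Slc1a2 in GCL-I stood at 331, 1798 and 1491 CPM, with a log2 fold change of -0.50 (edgeR, adjusted p = 0.0779). It passed with RLE scaling (adjusted p = 0.0243), with library sizes alone (0.0329), with DESeq2 (0.0455), with the join by spot name (0.0362) and without the rostral migratory system (0.00572). Glul there stood at 1051, 1171 and 1512 CPM, with a change of -0.45 (adjusted p = 0.103), and it passed with RLE scaling (0.0439) and without the rostral migratory system (0.00748). In the comparison of 5 regions without boundary spots both passed, at -0.81 for Slc1a2 (edgeR, adjusted p = 3.83e-04) and -0.87 for Glul (1.52e-05).

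Over all 9 regions jointly, each of the 3 genes differed among regions (edgeR, adjusted p = 7.60e-20 for Slc1a2, 2.95e-15 for Slc1a3 and 9.01e-21 for Glul), as did 23.2% of tested genes. The step from the external plexiform layer to the thin mitral layer beneath it, where mitral cell bodies lie, was shared by the 3 genes. Slc1a2 in the mitral layer stood at 571, 1840 and 1843 CPM, Slc1a3 at 381, 991 and 562 CPM and Glul at 507, 1048 and 1968 CPM. The log2 fold changes from the mitral to the external plexiform layer were 1.25, 1.47 and 1.34 (edgeR, adjusted p = 3.17e-07, 3.17e-07 and 6.42e-08), where 3.01% of genes were higher.

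The sections did not show this step alike. Within section 1 the ratio of the layers was 1.01 for Slc1a2 (95% exact interval 0.486 to 2.36, 42 against 9 counts) and 1.16 for Slc1a3 (0.477 to 3.38, 32 against 6 counts). For Glul it was 3.85 (1.90 to 9.09, 142 against 8 counts). In section 2 the ratios were 2.42, 1.93 and 3.01, and in section 3 they were 2.10, 3.93 and 1.52, for Slc1a2, Slc1a3 and Glul. Without section 2 the adjusted p was 0.220 for Slc1a2 and 0.107 for Glul, and without section 3 it was 0.123 for Slc1a3.

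Toward the outside, Slc1a2 was called lower and the others were not. It stood lower in the glomerular than in the external plexiform layer, at 428, 2403 and 2155 CPM, with a log2 fold change of -0.83 (edgeR, adjusted p = 7.81e-05, 0.752% of genes lower). The call was lost without section 2 (adjusted p = 0.592) or 3 (0.160). The same step was -0.46 for Slc1a3 (adjusted p = 0.183, or 0.0141 without section 1) and -0.36 for Glul (0.343). In the olfactory nerve layer Slc1a2 stood at 580, 1698 and 1348 CPM. This was lower than in the external plexiform layer by a log2 fold change of -1.29 (edgeR, adjusted p = 3.25e-09, 1.65% of genes lower). Within section 1, however, the external plexiform layer was at 0.997 times the olfactory nerve layer (exact interval 0.478 to 2.33). It was at 2.62 times in section 2 and at 2.87 times in section 3. Slc1a3 changed by -0.57 (edgeR, adjusted p = 0.0786) and Glul by -0.31 (0.458) in this step. Whether the genes differ from each other in the second of these steps was tested through their ratios, below.

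Toward the inside, Slc1a2 returned in the internal plexiform layer to 651, 3882 and 2410 CPM (2315 ± 1618). Its difference from the external plexiform layer was 0.53 on the log2 scale (edgeR, adjusted p = 0.127) and from the mitral layer 0.72 (0.204). It was higher there than in GCL-I, by 0.96 (adjusted p = 0.0374). It was the only 1 of 1996 tested genes (0.0501%) called between these layers. The call was lost with DESeq2 (adjusted p = 0.126), without section 2 (0.894) or 3 (0.312), with no filter (0.920) and without boundary spots (0.660). Slc1a3 in the internal plexiform layer stood at 326, 1762 and 1739 CPM, 1.01 above GCL-I (adjusted p = 0.122). Glul there stood at 732, 1599 and 1620 CPM, and the external plexiform layer was above it by a log2 fold change of 1.22 (adjusted p = 1.06e-06, 2.61% of genes higher in the outer layer). Against the mean of the other 8 regions, the internal plexiform layer had 0 of 1996 genes called (0%).

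The rostral migratory system, the path of newborn neurons, had the fewest counts. Slc1a3 stood at 614, 2712 and 2747 CPM there, from 10, 14 and 4 counts, the highest region in each of the 3 sections. Of all tested genes 0.902% were called in this region, and 0 of 3 uptake genes. The log2 fold change of Slc1a3 against the others was 0.41 (edgeR, adjusted p = 0.626), where the median over all tested genes was -0.44. Relative to the median of the region, Slc1a3 stood at 0.85 in RMS and 0.82 in the external plexiform layer. Slc1a2 stood at 368, 3100 and 4121 CPM from 6, 16 and 6 counts. Its fitted change was -0.42 (adjusted p = 0.606) with TMM scaling and 0.34 (0.795) with library sizes alone, since the TMM factors of this region were 0.981, 1.43 and 3.39 in sections 1, 2 and 3. Glul stood at 1474 and 1162 CPM in sections 1 and 2, from 24 and 6 counts, and at 0 of 1456 counts in section 3, which allows up to 2060 CPM. Markers of oligodendrocytes were high in this region, at 12650, 4456 and 6868 CPM summed, with Mbp called higher. Their part in these values was not tested, and fewer astrocytes cannot be told apart from less RNA per astrocyte in any region.

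By mean CPM, the order for Slc1a2 was EPL, RMS, IPL, GL, E, M/T, GCL-E, ONL and GCL-I. This order of means rests on sections that differed several-fold in level, and RMS ranked 8, 3 and 1 among the 9 regions in sections 1, 2 and 3. Of the neighbours in that order, the first pair differed (edgeR, adjusted p = 8.25e-04), but not with library sizes alone (0.519), without section 2 (0.101) or without section 3 (0.0598). The order for Slc1a3 was RMS, EPL, IPL, GL, ONL, E, GCL-I, M/T and GCL-E, and no pair of neighbours passed the test. For some neighbours the fitted difference ran against the order of means. It was -0.89 for RMS over IPL (adjusted p = 0.241) and -0.18 for GCL-E over ONL (0.831) in Slc1a2, and -0.47 for RMS over EPL (0.481) in Slc1a3. The order for Glul was EPL, GL, ONL, E, GCL-E, IPL, GCL-I, M/T and RMS, and the step from ONL to E passed (adjusted p = 0.00204), while GL over ONL was -0.046 in the fit (0.980). Of 36 pairs of regions, 10 were called for Slc1a2 and 7 of them involved the external plexiform layer. For Slc1a3 it was 10, with 4 that involved this layer, and for Glul 18, with 6. Over all tested genes and pairs, 3.94% were called.

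The ratio of 2 genes within a sum does not depend on scaling, so it was compared between layers. There were as many as 1.01 Slc1a3 counts per Slc1a2 count in the olfactory nerve layer of section 3, and 0.667 and 0.750 in sections 1 and 2. In the external plexiform layer the ratio was 0.762, 0.430 and 0.571 in sections 1, 2 and 3. The log2 ratio was lower there than in the olfactory nerve layer by 0.80 in section 2 and 0.83 in section 3, and was 0.19 higher in section 1. The mean difference was -0.48 (exact two-sided sign-flip permutation test, p = 0.5, smallest possible p 0.25 with 3 sections). The log2 Glul to Slc1a2 ratio differed likewise by 0.47, -0.97 and -1.30 between these layers (mean -0.60, exact permutation p = 0.5). Between the external plexiform layer and GCL-I the mean differences were 0.10 for Slc1a3 to Slc1a2 and -0.06 for Glul to Slc1a2 (exact permutation p = 1 for both). These were the 4 ratio comparisons made. With 3 sections these exact tests cannot pass the threshold.

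A share of counts can move because other genes in the sum move, so the counts were also related to the area covered. The external plexiform layer took up 28.9%, 30.2% and 28.3% of the annotated spots in sections 1, 2 and 3. It held 25.1%, 44.2% and 41.2% of the Slc1a2 counts, 26.7%, 37.4% and 36.3% of the Slc1a3 counts and 30.5%, 40.4% and 32.4% of the Glul counts. In section 1 both transporters thus had a smaller share of their counts than the layer had of spots, while the layer held 21.1% of all counts there. Per 10000 spots, Slc1a2 gave 1.66, 40.2 and 24.7 counts in the external and 3.57, 43.2 and 20.2 counts in the internal plexiform layer. The internal layer was higher in sections 1 and 2 and lower in section 3. In the olfactory nerve layer the mean was 8.41 ± 6.80 (SD, n = 3).

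Slc1a3 per 10000 spots averaged 12.0 ± 9.19 in the internal plexiform layer, 11.9 ± 7.98 in the rostral migratory system and 10.9 ± 8.48 in the external plexiform layer. Glul averaged 17.7 ± 11.5 in the external plexiform and 15.9 ± 9.77 in the glomerular layer. In section 1, several regions had more counts per spot than the external plexiform layer. For Glul (5.61 there) they were RMS (7.44), GCL-E (6.75), E (6.58) and GCL-I (6.04), for Slc1a3 they were RMS, IPL, E and M/T, and for Slc1a2 they were these 4 and both granule cell layers. In section 3, Glul per spot was higher in the glomerular layer (19.8 against 19.2), and M/T also stood at 19.2. These densities were not tested.

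**Figure D3:**
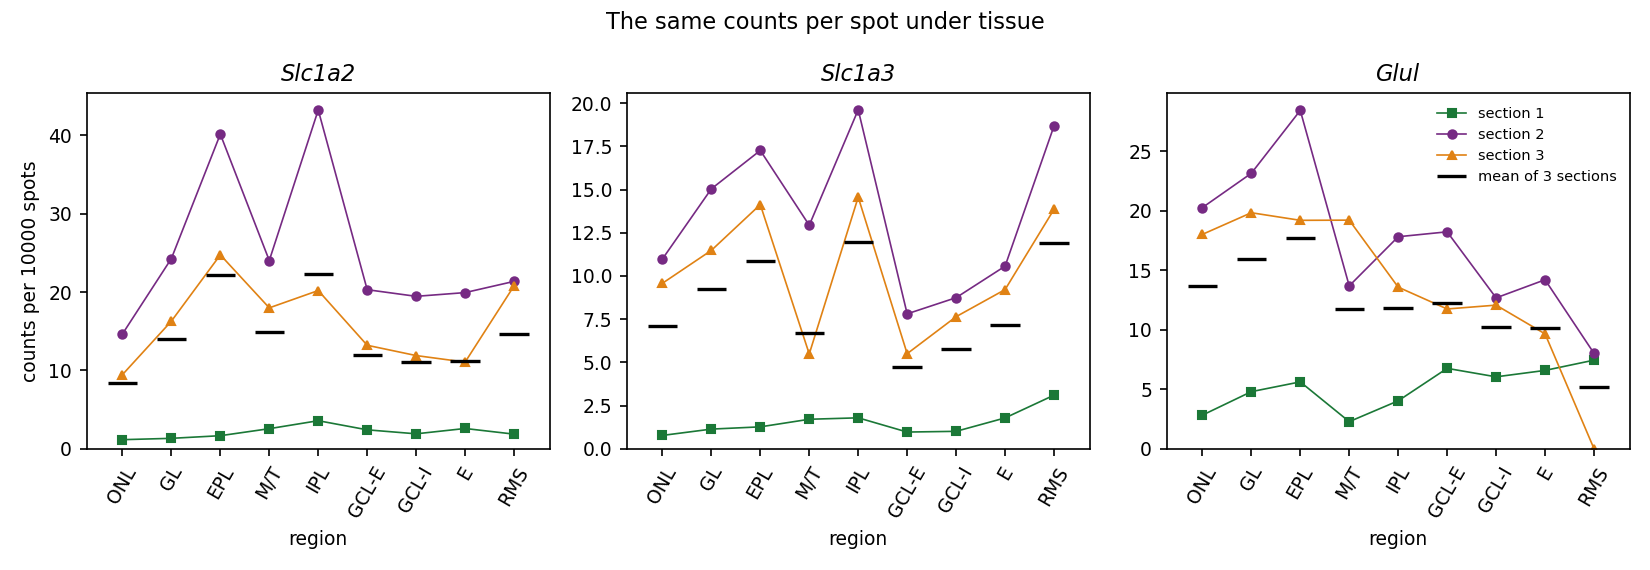
Counts of Slc1a2, Slc1a3 and Glul per 10000 spots under tissue (vertical axis, linear from 0) in 9 regions, with 1 line per section and black bars for the mean. For Slc1a2 the internal plexiform layer (22.3 on average) reaches the external plexiform layer (22.2), and section 1 lies below 4 in every region.

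Within the external plexiform layer, spots were divided into 3 zones of equal width (outer, middle and inner) by relative depth between the glomerular and mitral layers. Slc1a2 stood at 2518 ± 1777, 3485 ± 2409 and 2959 ± 2158 CPM in the outer, middle and inner zone. Slc1a3 stood at 1462 ± 866, 1758 ± 1046 and 1376 ± 917 CPM, and Glul at 2639 ± 550, 3043 ± 597 and 2522 ± 978 CPM. The outer and inner zones did not differ by the test for any of them. The log2 fold changes of outer against inner were -0.26 for Slc1a2 (edgeR, adjusted p = 0.595), 0.07 for Slc1a3 (0.956) and 0.04 for Glul (0.980), and 0.416% of 961 tested genes were called.

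The middle zone had the highest CPM of each gene in each of the 3 sections. In a comparison added after these values were seen, the middle zone was above the mean of the others by 0.39 ± 0.11 (SE) for Slc1a2, 0.33 ± 0.13 for Slc1a3 and 0.26 ± 0.11 for Glul on the log2 scale. None passed (edgeR, adjusted p = 0.0827, 0.330 and 0.398), and 0 of 961 genes (0%) did, with 93 at an unadjusted p under 0.05. Per 10000 spots the middle zone did not lead for Glul in any section. Its highest zone was the outer in section 1 (6.56 against 5.52 in the middle) and section 2 (30.1 against 29.0), and the inner in section 3 (21.7 against 20.4). Slc1a2 per spot was higher in the inner zone (1.91) than in the middle (1.72) in section 1.

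**Figure D4:**
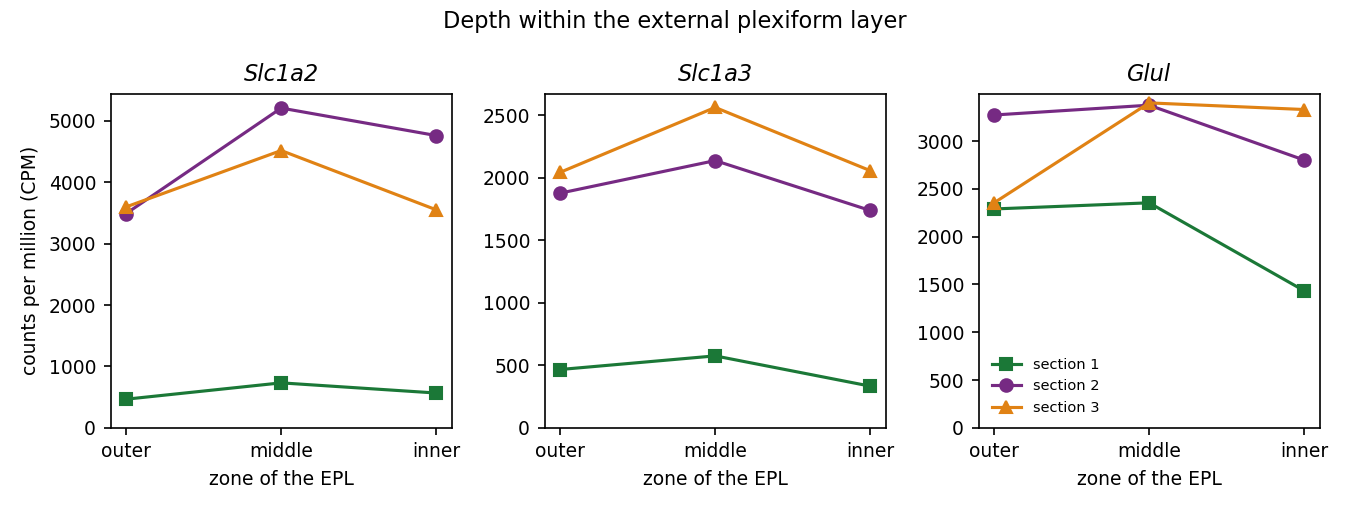
Level in CPM of the 3 genes (vertical axis, linear from 0) in the outer, middle and inner zone of the external plexiform layer, with 1 line per section. The middle zone is the highest point of each line, for example 5207 CPM for Slc1a2 in section 2, and none of these differences passed the test.

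Genes with a similar layer pattern were sought over the 27 sums, after the mean of each section was taken out of log2 CPM. These correlations are a description, since the sums share libraries and depth. The 4 genes most like Slc1a2 included Cpe (r = 0.72), a peptide-processing enzyme gene, Gm10925 (0.72) and Gm13340 (0.69). Gm10925 and Gm13340 are annotated as unprocessed pseudogenes. Slc1a3 was most like Cst3 (0.81), the gene of cystatin C, Gja1 (0.76), an astrocyte gap junction gene, Rps24 (0.74), a ribosomal protein gene, and Ndrg2 (0.71). The 4 genes most like Glul included Aldoc (0.97), an aldolase gene of astrocytes, Gm15564 (0.94) and Gm2000 (0.92). Over the 27 sums the uptake genes were less like each other than like these, with r = 0.66 for Slc1a2 and Slc1a3, 0.47 for Slc1a2 and Glul and 0.39 for Slc1a3 and Glul. Aldoc, Gm15564 and Gm2000 had 0 counts in the section 3 sum of the rostral migratory system, as Glul had. Without that region, chosen after this was seen, 1 of the 4 most similar genes remained for each uptake gene, and the values among the 3 were 0.76, 0.44 and 0.53. Slc1a3 was then the gene ranked 2 for likeness to Slc1a2, so seen from Slc1a2 the order was reversed. Seen from Slc1a3 it was not, since Slc1a2 ranked 14 for likeness to Slc1a3.

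Of 11 other tested genes of the glutamate and glutamine cycle, 6 were called in at least 1 region. The share of all genes called in at least 1 region was not computed, so this count has no background to be read against. In the external plexiform layer 4 of the 11 were called, Slc38a1, Glud1 and Slc17a7 higher and Gad1 lower. Of all tested genes 12.1% were called there in either direction. The other 5 members of the Slc1 family that carry glutamate or neutral amino acids, Slc1a1, Slc1a4, Slc1a5, Slc1a6 and Slc1a7, had 97, 56, 13, 7 and 1 counts, and 0 passed the filter on low counts. Of 9 glutamine transporter genes 3 were tested, and 1 rose in the external plexiform layer, Slc38a1 (log2 fold change 0.90, edgeR, adjusted p = 0.00675). Slc38a3, which releases glutamine from astrocytes, had 284 counts and was not called in any region. Of 11 genes of glutamate and glutamine metabolism 7 were tested. In the external plexiform layer Glud1, glutamate dehydrogenase, rose (0.55, adjusted p = 0.0196) and Gad1, which makes GABA, fell (-0.40, 0.0307). The median of these 7 was 0.21, against 0.12 for all tested genes. In the glomerular layer Gad2 (0.93, adjusted p = 9.75e-07), which also makes GABA, and Abat (0.79, 1.31e-04), which breaks GABA down, rose. Gad1 rose in GCL-I (0.75, 9.77e-06) and fell in RMS (-1.15, 0.025).

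Slc17a7, which loads glutamate into synaptic vesicles of mitral and tufted cells, rose in the external plexiform layer (1.48, edgeR, adjusted p = 4.02e-17), the mitral layer (1.62, 7.61e-08) and the glomerular layer. It fell in GCL-I and E. In the mitral layer 1.9% of genes rose, this gene among them, and 0 of 3 uptake genes did. Of 8 transporter partner and regulator genes 4 were tested, and Prkca, a protein kinase C gene, fell in the glomerular (-0.99, adjusted p = 2.36e-05) and external plexiform layers (-0.75, 8.53e-04) and rose in GCL-I (0.70, 0.00971). Of 2 glutamate receptor genes listed for astrocytes, Grm5 was tested and called higher in E (1.46 ± 1.13, SE, edgeR, adjusted p = 0.0348). The mean of the other regions includes RMS, where Grm5 had no counts in any section and its fitted change was -5.61. By mean CPM, Grm5 stood at 199 in E and 190 in GCL-I. In E 2.61% of genes and 0 of 3 uptake genes were called.

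Astrocyte genes for ions and water moved with the uptake genes in the external plexiform layer. Of 10 such genes 6 were tested, and 6 rose there, where 10.8% of all tested genes did. Their median was 1.02 against 0.12 for all genes. Among them were Kcnj10 (1.52), a potassium channel gene, Gja1 (1.45), Aqp4 (1.07), the water channel gene, Slc4a4 (0.98), a bicarbonate transporter gene, and Atp1b2 (0.73). In the glomerular layer 5 of 6 rose (8.77% of all tested genes) and in the olfactory nerve layer 2 (5.96%). In GCL-I 1 fell (0.902% of all tested genes), and 0 were called in M/T, IPL, GCL-E, E and RMS. Of 14 tested genes for other astrocyte functions 10 rose in the external plexiform layer, with a median of 0.63. Slc6a11 (0.98), a GABA transporter gene, and Plpp3 (0.98) were among them, and Gfap, Ndrg2, Mt1 and Clu were not called. The summed CPM of this second list was 16425, 15287 and 15826 in the external plexiform layer, with an SD of 569 CPM over sections. Its mean was higher in RMS (19798 CPM, from 20632, 14723 and 24038 CPM in sections 1, 2 and 3), where 1 of the 14 and 0.251% of all tested genes rose. That gene was Cst3, which alone averaged 6148 CPM in RMS and 2796 CPM in the external plexiform layer. The higher sum is thus no rise of the list as a whole. In section 1 the summed CPM of the olfactory nerve (17970 CPM) and glomerular layers (16922 CPM) was above that of the external plexiform layer too.

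**Figure D5:**
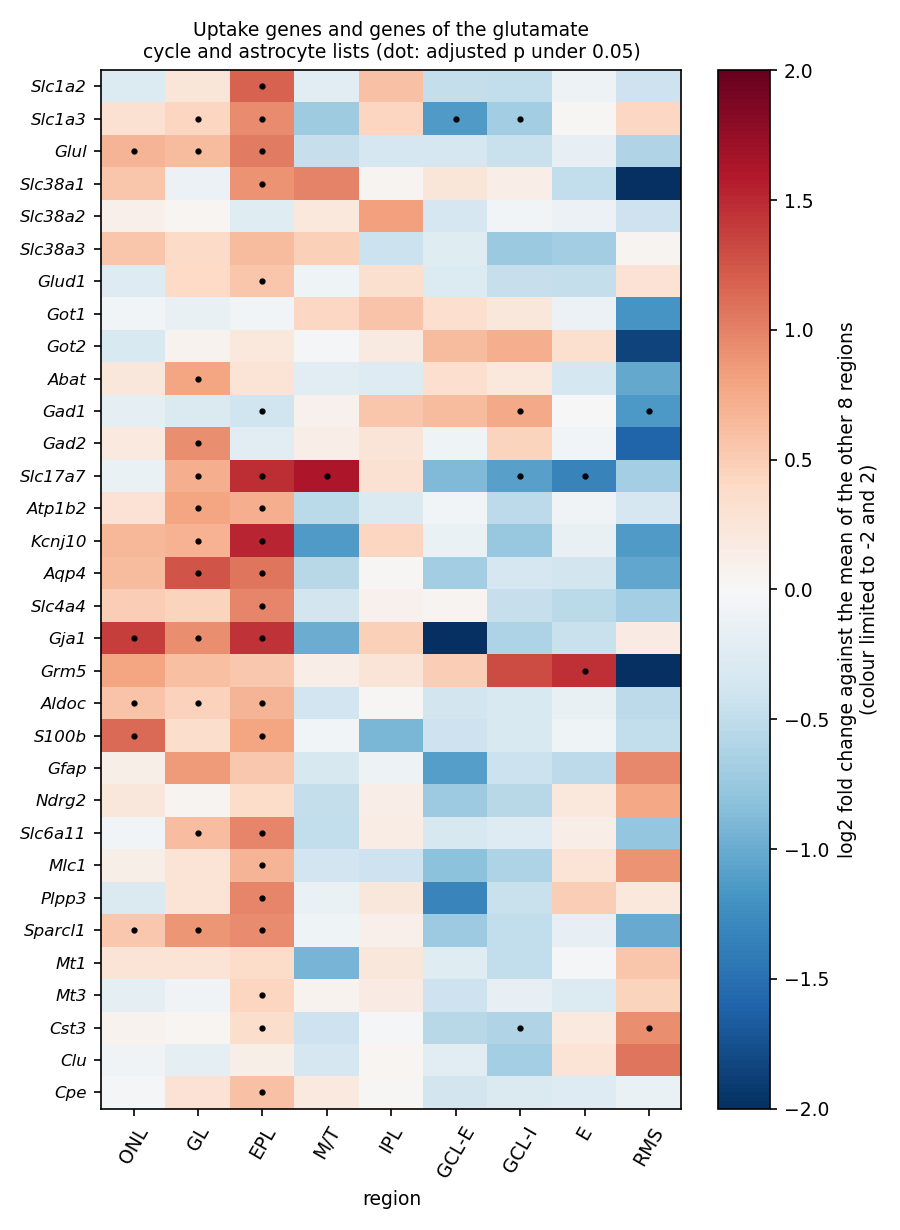
Log2 fold change of each region against the mean of the other 8 (colour, limited to -2 and 2) for the 3 uptake genes and tested genes of the glutamate cycle and astrocyte lists (rows, some tested genes not shown) in 9 regions (columns), with a dot where the adjusted p was under 0.05. Dots gather in the EPL column, among them Kcnj10 at 1.52 and Gja1 at 1.45, while the IPL column has none.

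Markers of other cells moved with some of these results, and their part was not tested. In the external plexiform layer 5 of 5 tested mitral and tufted cell markers rose, where 10.8% of all tested genes did. Their summed levels were 5117, 2140 and 2251 CPM against 992, 643 and 831 CPM in GCL-I. This list was also high in the mitral layer (4567, 3001 and 3467 CPM), where 0 of 3 uptake genes rose. Oligodendrocyte markers summed to 3095, 1856 and 2139 CPM in the external plexiform layer, with Mbp and Mobp lower, and to 5756, 3745 and 3635 CPM in E, where Glul was not called. In the olfactory nerve layer 5 of 5 tested olfactory ensheathing glia markers rose, where 5.96% of all tested genes did. Their summed levels were 5217, 7769 and 6810 CPM against 1678, 1779 and 1907 CPM in the external plexiform layer. Glul, Gja1, Aldoc, S100b and Sparcl1 rose with them in that layer, but most tested astrocyte genes were not called there. Of the 14 tested genes for other astrocyte functions 3 rose, with a median of 0.12 against 0.09 for all tested genes. Of the 6 tested genes for ions and water 2 rose, and Slc1a2 stood at -0.27 (not called). In the glomerular layer Glul and Slc1a3 rose, as did 8.77% of all tested genes. There 3 of 5 olfactory ensheathing glia markers and 4 of 5 mitral and tufted cell markers rose. Their summed levels were 2324, 3244 and 3675 CPM and 3507, 2006 and 1876 CPM. In GCL-I, where Slc1a3 fell and 2.4% of all tested genes rose, 5 of 10 granule cell markers rose. Their median was 0.61 and their summed levels were 11286, 10723 and 9777 CPM. In E, where 2.15% of all tested genes rose, 5 of 10 of these markers did too, with a median of 0.48 and a mean sum of 8718 CPM. Slc1a3 was not called in E (0.017, edgeR, adjusted p = 0.983). In GCL-E the granule cell markers summed to 8661, 9712 and 10122 CPM and 0 of 10 were called, against 6053, 5008 and 4517 CPM in the external plexiform layer. Of 8 microglia markers 0 were tested, and their sums in the external plexiform layer were 316, 345 and 271 CPM.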

How the data were processed

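The authors deposited, for each section, raw counts per spot and gene as whole numbers, with a table of each spot's pixel position and region. Per the submitters' processing notes, the genome build was mm10. No label or file header names the aligner, the counter or whether counts are unique molecules.

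Pixel positions tied spots to regions for 100% of entries, and by spot name 97.1% of entries in sections 2 and 3 got the same region. Counts without a gene name (0.0325% to 0.0801%) and spots of unknown region were left out. Counts were summed into 27 sums (3 sections, 9 regions) and tested with edgeR 4.0.16 (quasi-likelihood, R 4.3.3), TMM scaling and filterByExpr with a minimum count of 10 (1996 genes). Section was the block, since the 9 sums of a section come from the same tissue and array. After each region's mean over the 3 sections was taken out, sums of the same section had a mean correlation of 0.41 (108 pairs, lowest 0.061). Taking out that mean forces the value for sums of different sections (-0.21) below 0, so it is no separate evidence for the block. P-values were adjusted by Benjamini-Hochberg over all tested genes within a comparison, at a threshold of 0.05. The pipeline was tested on simulated data.

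The 3 genes and the gene lists were chosen with earlier results of these data known. Genes named for likeness were the 4 with the highest Pearson r with each uptake gene over the sums (log2 CPM, prior count 2). Of each list, 2 to 4 genes with the most counts and those called were named, but a few genes that these rules would name are not reported. Intervals and floors (3 counts) cover counting error only. Alternatives were RLE scaling, library sizes alone, no filter, no block, DESeq2 1.42.0, boundary spots left out (those within 5 array positions of another region), the join by name, the rostral migratory system left out, each section left out and, added after seeing the data, the sum of the rostral migratory system in section 3 left out, and boundary spots left out with only the 5 regions of at least 10000 counts in each section. Tables used pandas 2.3.3 and scipy 1.17.1 in Python 3.11.15, and figures matplotlib 3.10.9.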

Additional observations from a re-analysis of the deposited data

Results flagged for a closer look

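Spots without a named region were in no comparison, and the uptake genes had counts in them. In section 2, 6424 such spots held 5699 counts, of which 11 were Slc1a2 (1930 CPM), 4 Slc1a3 (702 CPM) and 12 Glul (2106 CPM). In section 3, 4444 such spots held 3435 counts, of which 11 were Glul (3202 CPM), above the 3 that a count of 0 allows, as each count in section 2 was. Slc1a2 and Slc1a3 had 3 each there (873 CPM). Section 1 had 91 such spots with 42 counts, none of them of an uptake gene.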

How the results depend on the processing

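With the section block kept, the 3 calls in the external plexiform layer held under each of 12 alternatives, with log2 fold changes of 0.93 to 1.77 for Slc1a2, 0.70 to 2.24 for Slc1a3 and 0.83 to 1.56 for Glul (highest adjusted p 1.03e-05, 0.00108 and 2.04e-04). The highest values came without boundary spots, where the median of all genes was 1.49. With no filter the 3 values were 1.51, 1.29 and 1.38, against a median of 2.71 over 19621 genes and 0.46 over the 1996. Without the replicate block the changes were 1.23, 0.97 and 1.09 with adjusted p = 0.396, 0.566 and 0.199, and the calls over regions (8), pairs (38) and the joint test (3) each came to 0. The sums of a section share tissue and array, and why they deviate together was not tested. Leaving out a section gave 3 to 9 calls over regions and 11 to 43 over pairs, lowest without section 2. The 4 most similar genes shared 1 with the main list at a prior count of 10 for Slc1a2 and Glul, and 1 for each uptake gene without the rostral migratory system.

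Where a value changed sign, the alternative did not pass the threshold. Without boundary spots, which left 71, 209 and 2594 counts in GCL-E, they were Slc1a2 in ONL (0.24) and E (0.34), Slc1a3 in GCL-I (0.50) and IPL against GCL-I (-0.13), Glul in E (0.25) and IPL against GCL-I (-0.39), and the log2 Slc1a3 to Slc1a2 ratio, EPL minus GCL-I (-0.054). The medians of all tested genes were then 1.43 in ONL, 1.09 in E, 1.18 in GCL-I and -0.30 for IPL against GCL-I, and the flipped values of single genes lay below them, other than Slc1a3 in IPL against GCL-I. In the 5 regions with at least 10000 counts, chosen after seeing this, Slc1a2 in ONL was -0.42 and in E -0.21, Glul in E -0.59 and Slc1a3 in GCL-I -1.04, while Slc1a3 in E turned to -0.15. With no filter they were Slc1a2 (0.17) and Glul (0.13) in E, Slc1a3 in RMS (-0.25), Glul in IPL against GCL-I (-0.17) and Glul in the outer against the inner zone of the external plexiform layer (-0.020, and -0.017 when cut into 2 zones). Over the 1996 genes the medians were then 0.39 in E and -0.98 in RMS. With library sizes alone they were Slc1a2 in RMS (0.34) and Slc1a3 in EPL against RMS (-0.41). Slc1a3 in E was -0.081 with RLE scaling, -0.075 with DESeq2 and -0.0017 with the join by name. Leaving out a section gave ranges of -0.30 to 0.0084 for Slc1a2 in M/T, -0.10 to 0.16 for Slc1a3 in E, -0.51 to 0.19 for Glul in M/T against IPL, -0.17 to 0.26 in IPL against GCL-I and -0.089 to 0.37 in the outer against the inner zone. The ratio differences between EPL and GCL-I ranged from -0.12 to 0.23 for Slc1a3 and from -0.15 to 0.10 for Glul. The cause was not tested in these cases. Low counts of the transporters in section 1 and of all 3 genes in GCL-E and RMS limit what could be detected there.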
